A study of Mus musculus with 18 samples.

Results

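Rnf185 encodes a RING-type ubiquitin ligase of the endoplasmic reticulum membrane that takes part in the degradation of misfolded and short-lived membrane proteins. The genes described here are those whose transcript level separated every culture carrying a hairpin against Rnf185 from every control culture of the mouse prostate cancer line MPC3. They were taken from the deposited table of library-scaled read counts (CPM) by a rule without a model: all 12 knockdown libraries lay above the highest of the 6 control libraries, or all 12 lay below the lowest. Of 15386 genes in that table, 608 met the first condition and 341 the second.

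The study held 18 libraries of polyadenylated RNA in 3 groups of 6: the control labelled plko and the hairpins shRNF185.1 and shRNF185.3, each in MPC3 cells. The labels state neither a genotype for MPC3 nor what the control vector carries, and they do not say whether a replicate was a separate infection. Each group had 2 libraries in each of 3 labelled batches, and p-values measure only the spread between these libraries. Total counts ranged from 22027395 to 43379662 per library. Of the epithelial markers, Krt8, Krt18 and Cdh1 were present and Epcam had at most 7 counts in any library. The prostate secretory gene Pbsn had no counts in any library. The pan-leukocyte marker Ptprc had at most 3 counts and the endothelial marker Cdh5 at most 2. Other markers of these lists were detected: Cd68, of macrophages, reached 145 counts and Pecam1 and Kdr, of endothelium, 11. The summed level of the myeloid list was 41.57 to 60.48 CPM in plko and 45.21 to 71.61 in the knockdown libraries, and that of the endothelial list 11.3 to 18.43 and 7.328 to 15.91. Pdgfra and Pdgfrb, receptors that are also fibroblast markers, were well detected in the control, at 72.6 to 100.7 CPM and 137.6 to 185.7 CPM.

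Read against the whole table, this rule was strict. With edgeR's quasi-likelihood test of the mean of both hairpins against plko (Benjamini-Hochberg adjusted p under 0.05), 2299 of 14309 tested genes were higher (16.1%) and 2402 lower (16.8%). Higher or lower by at least 2-fold were 383 (2.68%) and 120 (0.839%). The genes above every control were 3.95% of the CPM table and those below every control 2.22%. All 604 and 337 members that were tested were called in the matching direction, which the rule itself nearly ensures, so that these counts support nothing. Leaving out batches 1, 2 and 3 in turn gave 2672, 5411 and 3106 called genes, and the genes above and below every control were 1289 and 1128 when batch 2 was left out. A scaling that also corrects for GC content and length moved the split of the called genes from 48.9% to 39.6% higher.

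The upward side was larger in number and in size. Its median log2 fold change was 0.67 (quartiles 0.41 and 1.23), and 201 of 604 genes changed at least 2-fold, against a median of -0.40 (quartiles -0.76 and -0.28) and 58 of 337 on the downward side. Some separated genes moved little, since 42 of the higher and 71 of the lower ones changed by less than 1.2-fold. In exonic length the higher genes had a median of 4705 bases and the lower genes 4288, beside 3905 over the table. In GC content the medians were 51%, 48.2% and 49.7%. The genes nearest the rule's limit show how narrow it is. St3gal2, a sialyltransferase, was just inside, with a highest control and a lowest knockdown library both at 165.6 CPM to 4 digits, while Cabin1, a calcineurin-binding protein, was just outside at 102.4 CPM. Among the lower genes, the uridine kinase Uck1 was just inside, with 43.13 CPM in the highest knockdown library and 43.15 in the lowest control, and the transcription factor Pax6 just outside, at 4.788 and 4.784. A further 217 tested genes had 11 of the 12 knockdown libraries above all controls and 176 had 11 below.

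The targeted gene was the member with the lowest adjusted p of all. Rnf185 lay at 33.6, 36.2 and 38.4 CPM (lowest, median and highest library) in plko, at 5.21, 5.63 and 6.80 under shRNF185.1 and at 5.19, 5.73 and 6.72 under shRNF185.3. No knockdown library came near a control library, and the log2 fold change was -2.63 ± 0.06 (SE; adjusted p = 2.45e-16).

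Genes that answer to interferon had the highest separated shares of all 64 lists examined. Interferons act through receptors and transcription factor complexes that bind a response element in promoters and switch on antiviral effectors, GTPases and antigen presentation, and most cell types, epithelial cells among them, can mount this response. Of 49 tested genes of an antiviral list, 41 were called higher and none lower, with a median log2 fold change of 1.70 beside -0.02 over all tested genes. Every tested member of this list had a positive fold change, and 24 of the 51 in the CPM table (47.1%) lay above every control, beside 3.95% of the table. Among interferon-induced GTPases 14 of 15 were called higher and none lower, and 8 of 17 (47.1%) lay above every control.

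The promoters of these genes were searched for the core of the interferon response element, GAAANNGAA or its reverse complement, overlapping matches allowed, in windows from 250 bases before to 50 after each RefSeq start (GRCm38.p6). It occurred in 18 of 29 windows (62.1%) of the genes of both lists that lay above every control, in 63 of 593 windows (10.6%) of the other genes above every control, in 20 of 310 (6.45%) of the genes below, and in 949 of 13401 (7.08%) of all windows. A match is a run of letters and not a measured binding site. For 7 of these promoters a stretch of 60 bases is given that lies within the 250 before the start, at varying distances from it, and holds the match nearest the start. It is read 5′ to 3′ on the gene's strand, with the matches in capitals. Within these stretches several genes carry a single match, others an overlapping pair, and Ifit3 a pair that does not overlap.
Oas1a, chr5:120907526-120907585, minus strand: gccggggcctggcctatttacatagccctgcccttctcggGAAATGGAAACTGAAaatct
Oas3, chr5:120777694-120777753, minus strand: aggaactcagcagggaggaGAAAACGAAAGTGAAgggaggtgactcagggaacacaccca
Ifit3, chr19:34583402-34583461, plus strand: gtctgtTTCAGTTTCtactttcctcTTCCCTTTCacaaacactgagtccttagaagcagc
Trim30a, chr7:104465194-104465253, minus strand: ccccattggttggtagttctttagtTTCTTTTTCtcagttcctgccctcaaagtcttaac
Gbp3, chr3:142559981-142560040, plus strand: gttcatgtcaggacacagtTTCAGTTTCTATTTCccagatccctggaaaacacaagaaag
Gbp2, chr3:142620580-142620639, plus strand: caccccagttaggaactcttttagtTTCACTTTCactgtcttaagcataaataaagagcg
Igtp, chr11:58199496-58199555, plus strand: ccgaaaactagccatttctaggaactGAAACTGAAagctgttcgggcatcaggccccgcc

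Oas1a, a synthase of the 2-5A messenger that activates RNase L, had the largest change of these at a mean count of at least 50. It lay at 0.439, 0.797 and 1.36 CPM (lowest, median, highest) in plko, at 5.37, 11.3 and 13.7 under shRNF185.1 and at 3.59, 4.90 and 11.01 under shRNF185.3. Knockdown and control did not overlap, as the rule requires, and the log2 fold change was 3.09 ± 0.29 (adjusted p = 2.67e-07). The higher hairpin was shRNF185.1 (adjusted p of the difference between hairpins 0.0239). Of the 75-base windows of Oas1a transcripts 47.6% also occur in Oas1g, so reads could be split between these copies. Oas3, a larger synthase of the family with no such shared window, lay at 0.471, 1.37 and 3.57 CPM in plko, 6.17, 10.9 and 17.8 under shRNF185.1 and 6.87, 9.59 and 16.0 under shRNF185.3. Its change was 2.55 ± 0.35 (adjusted p = 1.96e-05), or 3.45 without batch 2, and the difference between its hairpins was -0.16 (adjusted p = 0.849).

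Ifit3, of a family whose proteins bind foreign RNA, rose by 2.69 ± 0.32 on the log2 scale (adjusted p = 3.39e-06), from a control median of 3.02 CPM to 21.5 and 11.04. It shares 41.1% of its windows with Ifit3b, whose own change was 2.93 ± 0.31 (adjusted p = 1.23e-06), so the share of each copy is uncertain. Zbp1, a sensor of Z-form nucleic acid, lay at 0.188, 0.694 and 0.817 CPM in plko, 2.13, 3.16 and 7.23 under shRNF185.1 and 2.003, 4.02 and 7.64 under shRNF185.3. Its lowest knockdown library was more than 2-fold above the highest control, and the change was 2.75 ± 0.39 (adjusted p = 2.36e-05). Trim30a, a restriction factor of the tripartite motif family, rose from 2.69 to 15.1 and 16.4 CPM at the medians, a change of 2.5 ± 0.24 (adjusted p = 3.53e-07). The other antiviral genes above every control were Cmpk2, Ifit1, Rsad2, Lgals3bp, Xaf1, Oasl2, Phf11d, Ifi47, Dhx58, Sp100, Oas1b, Oas1c, Samd9l, Ifih1, Parp14, Parp12, Trim21 and Ifi35.

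Gbp2, a guanylate-binding GTPase that attacks the vacuoles of intracellular parasites, lay at 5.65, 10.2 and 11.4 CPM in plko, 40.04, 50.6 and 54.1 under shRNF185.1 and 24.9, 28.3 and 50.1 under shRNF185.3. Here the gap between the lowest knockdown and the highest control library exceeded 2-fold, the change was 2.05 ± 0.16 (adjusted p = 2.33e-08), and the hairpins differed (adjusted p = 0.00872). Gbp3 rose by 2.41 ± 0.21 (adjusted p = 8.64e-08), from a control median of 3.85 CPM to 24.5 and 15.01. The immunity-related GTPases Igtp and Irgm2, neighbours on chromosome 11, rose by 2.02 ± 0.27 and 1.94 ± 0.31 on the log2 scale (adjusted p = 1.46e-05 and 9.97e-05), the latter by 2.63 without batch 2.

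Upstream components of the pathway moved less. Of 23 signalling genes 11 were called higher (47.8%) and 2 lower (8.7%), beside 16.1% and 16.8% of all tested genes. The list median was 0.22, and 4 (17.4%) lay above every control, beside 3.95% of the table. The number called higher was 17 without batch 2 and 5 without batch 3. The transcription factor Irf5 rose by 1.52 ± 0.12 (adjusted p = 2.25e-08), with all controls within 1.46 to 1.69 CPM and all knockdown libraries within 3.36 to 5.93. Irf1, an activator of the same targets, rose by 0.46 ± 0.07 (adjusted p = 4.02e-05). Nlrc5, the transactivator of class I genes, was above every control as well.

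Antigen presentation through class I molecules depends on cutting of proteins by the immunoproteasome, transport by TAP and trimming in the endoplasmic reticulum. Of 20 genes of this route 18 were called higher (90%) and none lower, beside 16.1% and 16.8% of all tested genes. The list median was 0.85, and 6 (30.0%) lay above every control, beside 3.95% of the table. Psmb8, an immunoproteasome protease subunit, lay at 1.26, 2.10 and 2.59 CPM in plko, 9.42, 12.7 and 18.9 under shRNF185.1 and 9.83, 16.9 and 19.1 under shRNF185.3. On the log2 scale its lowest knockdown library was 1.86 above the highest control, and the change was 2.77 ± 0.23 (adjusted p = 4.66e-08). Tap1, a subunit of the peptide transporter and its neighbour on chromosome 17, lay at 1.22, 3.57 and 5.12 CPM in plko and at 5.96 to 17.8 in the knockdown libraries, a change of 1.73 ± 0.27 (adjusted p = 8.43e-05). Within batches 1, 2 and 3 the log2 difference of Tap1 was 1.53, 0.78 and 3.17. Erap1, the trimming aminopeptidase, changed less but with little spread, from 28.8 to 36.8 CPM in plko to 49.9 to 60.7 in the knockdown libraries (0.74 ± 0.05, adjusted p = 9.37e-09). The class I genes H2-Q4 and H2-T10 rose by 2.49 ± 0.41 and 1.91 ± 0.14 (adjusted p = 0.000114 and 8.95e-09), and 7.02% and 16.0% of their windows occur in other genes, so they are less certain. Without batch 3 the change of H2-Q4 was 1.62. H2-T10 also differed between the hairpins, at a median of 4.13 CPM with shRNF185.1 and 1.85 with shRNF185.3 (adjusted p = 1.04e-05). Of 31 genes of the proteasome list none was called higher and 1 (3.23%) lower (4 lower without batch 2), with a median of 0.00. Over all tested genes these shares were 16.1% and 16.8%.

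The size of the interferon changes varied with the batch. With batches 1, 2 and 3 left out in turn, the median of the antiviral list was 1.63, 2.05 and 1.34. In plko the mean log2 level of this list ran from -0.94 in replicate 6 to 0.60 in replicate 3 around the control mean, and in the knockdown libraries from 1.04 to 2.11, so that no knockdown library reached down to a control. The part of the batch in these levels was not tested. Schlafen genes, growth regulators that interferon also induces, had 3 of 5 members higher (60%, beside 16.1% of all tested genes) and none lower. Among them Slfn2 changed by 2.83 ± 0.29 (adjusted p = 8.59e-07).

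**Figure D1:**
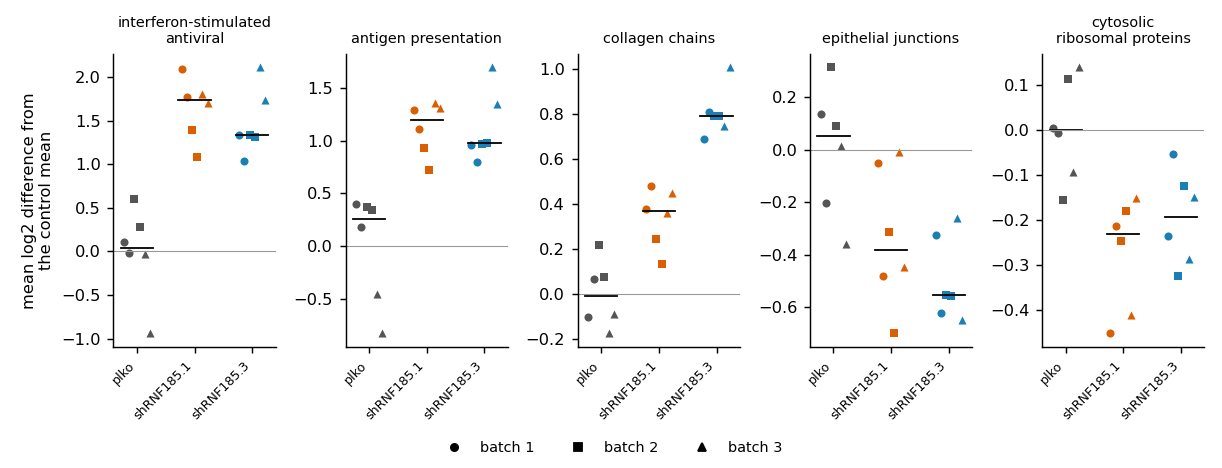
Mean log2 difference from the control mean over the tested genes of 5 lists, 1 point per library, shaped by batch, with the median of each group as a bar. The antiviral list does not overlap between plko (-0.94 to 0.60) and knockdown (1.04 to 2.11), whereas the collagen, epithelial junction and ribosomal lists do overlap.

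Secreted immune factors followed in part. Complement is a cascade of plasma proteases, and of 11 tested genes 6 were called higher and 1 lower, with 4 above every control and 1, the receptor C3ar1, below. The complement genes above every control included C1s1, C1ra and C1rl, which encode proteases of the first complement component or their relative and lie side by side on chromosome 6. C1s1 lay at 24.5, 31.6 and 46.9 CPM in plko, 59.9, 70.2 and 97.8 under shRNF185.1 and 55.4, 83.5 and 105.0 under shRNF185.3. Both hairpins lay above the control, as the rule requires, with a change of 1.24 ± 0.17 (adjusted p = 2.32e-05). C1ra, of whose windows 42.4% occur in other genes, changed by 1.38 ± 0.12 (adjusted p = 6.67e-08). Of 31 tested chemokines and cytokines 12 were called higher (38.7%) and 4 lower (12.9%), beside 16.1% and 16.8% of all tested genes. Ccl5, a chemokine for T cells, lay at 3.20, 4.998 and 7.02 CPM in plko and at 7.96 to 20.3 in the knockdown libraries (1.37 ± 0.20, adjusted p = 3.26e-05). Cxcl10, an interferon-induced ligand of CXCR3, rose by 1.25 ± 0.21 (adjusted p = 0.000167), and its within-batch differences were 0.60, 1.18 and 2.04. Of 18 feedback genes of NF-kB 3 were called higher (16.7%) and 4 lower (22.2%), or 1 and 7 without batch 3. These shares were near the 16.1% and 16.8% of all tested genes, and the list median was -0.02. None of the list lay above every control and 2 lay below. Tnfaip3, the A20 deubiquitinase, fell by 0.53 on the log2 scale (SE 0.09, adjusted p = 0.000162). The adaptor Traf1 fell by 1.06 (SE 0.12, adjusted p = 2.45e-06).

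**Figure D2:**
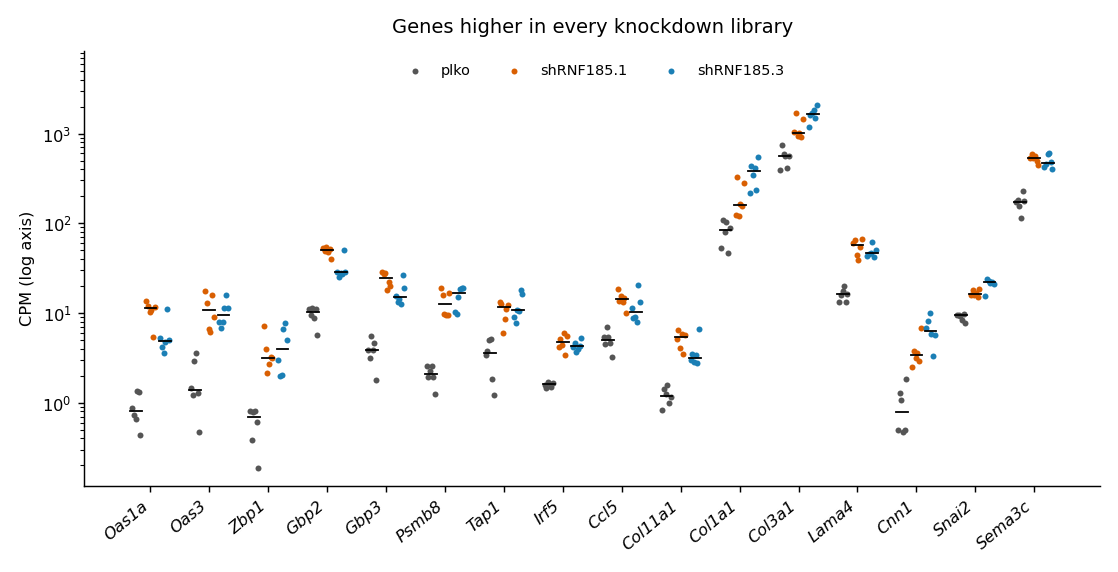
CPM on a log axis in each of 18 libraries for 16 genes above every control, 6 points per group in the order of replicate number, with a bar at the group median. For Psmb8 all 12 knockdown libraries lie between 9.42 and 19.1 CPM and all 6 plko libraries between 1.26 and 2.59, whereas for Tap1 the groups nearly touch.

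Extracellular matrix genes formed the next group. Fibrillar collagens give tissue its tensile strength, and their chains are hydroxylated in the endoplasmic reticulum, trimmed by ADAMTS proteases and crosslinked by lysyl oxidases outside the cell. Of 29 tested collagen chains 17 were called higher (58.6%) and none lower, beside 16.1% and 16.8% of all tested genes. The list median was 0.51. Above every control lay 9 of 30 (30.0%), beside 3.95% of the table: Col11a1, Col1a1, Col24a1, Col3a1, Col12a1, Col6a2, Col5a1, Col6a1 and Col16a1. Col3a1, the chain of type III collagen, lay at 387.8, 566.1 and 745.2 CPM in plko, 919.4, 1022 and 1699 under shRNF185.1 and 1172, 1659 and 2082 under shRNF185.3. Its change was 1.35 ± 0.16 (adjusted p = 4.11e-06), without overlap of knockdown and control, as the rule requires. Col1a1, a chain of type I collagen, lay at 46.6, 83.9 and 109.3 CPM in plko, 119.6, 159.8 and 327.0 under shRNF185.1 and 219.9, 378.6 and 546.4 under shRNF185.3. Its lowest library with shRNF185.1 was close to the highest control, and the hairpins differed (1.74 ± 0.27, adjusted p = 6.28e-05, and adjusted p = 0.0379 between hairpins). Col11a1, a minor fibrillar chain, rose by 1.84 ± 0.21 (adjusted p = 1.89e-06) from a median of 1.2 CPM, and Col12a1, which decorates fibrils, rose by 0.96 ± 0.09 (adjusted p = 3e-07) from 112.0 CPM. Over the collagen list 12 of 29 genes differed between the hairpins, with list medians of 0.25 for shRNF185.1 and 0.83 for shRNF185.3. The mean log2 level of this list overlapped, at -0.17 to 0.22 in plko and 0.13 to 1.01 in the knockdown libraries.

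Of 26 genes that modify, trim or crosslink collagen 15 were called higher (57.7%) and 1 lower (3.85%), or 9 and 2 without batch 3. Over all tested genes these shares were 16.1% and 16.8%. Above every control lay 6 (23.1%), beside 3.95% of the table. Loxl1, a lysyl oxidase, lay at 8.56 to 15.6 CPM in plko, 28.3 to 47.8 under shRNF185.1 and 16.0 to 29.6 under shRNF185.3. Libraries with shRNF185.3 only just cleared the control, the change was 1.27 ± 0.17 (adjusted p = 1.68e-05), and the hairpins differed (adjusted p = 0.00262). Adamts2 and Adamts14, which cut the amino propeptide of procollagen, rose by 0.93 ± 0.12 and 1.01 ± 0.15 (adjusted p = 8.9e-06 and 5.54e-05), and P4ha3, a prolyl hydroxylase subunit, by 0.66 ± 0.06 (adjusted p = 1.68e-07). The remaining 2 were the hydroxylases Plod1 and P3h1.

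Among matrix glycoproteins and proteoglycans 24 of 46 were called higher (52.2%) and 5 lower (10.9%), beside 16.1% and 16.8% of all tested genes. Above every control lay 13 (27.7%) and below it 1 (2.13%), beside 3.95% and 2.22% of the table. Lama4, a laminin chain of vessel and muscle basement membranes, lay at 13.1, 16.1 and 19.9 CPM in plko, 38.5, 57.1 and 67.4 under shRNF185.1 and 41.8, 46.0 and 62.0 under shRNF185.3, a change of 1.68 ± 0.13 (adjusted p = 1.88e-08). The gap between the groups was 0.96 on the log2 scale. Spon2, a secreted matrix protein, had tight groups: 75.7 to 92.9 CPM in plko, 161.8 to 201.4 under shRNF185.1 and 151.5 to 207.5 under shRNF185.3 (1.09 ± 0.07, adjusted p = 4.42e-09). Tgfbi, an integrin-binding matrix protein induced by TGF-beta, rose by 1.22 ± 0.13 (adjusted p = 1.71e-06). Fmod and Fbln5, which guide collagen and elastic fibre assembly, rose by 1.5 ± 0.20 and 1.47 ± 0.16 (adjusted p = 1.1e-05 and 1.31e-06) and differed between the hairpins in opposite directions, Fmod at medians of 5.51 and 12.2 CPM and Fbln5 at 13.0 and 5.47 CPM with shRNF185.1 and shRNF185.3. The exception below every control was Npnt, an integrin ligand of epithelial basement membranes, which fell by 2.26 on the log2 scale (SE 0.14, adjusted p = 1.17e-09). Of 35 matrix proteases and inhibitors 17 were called higher (48.6%) and none lower, beside 16.1% and 16.8% of all tested genes. The counts were 10 and none without batch 1 and 13 and 4 without batch 3. Mmp19 lay at 5.77 to 9.20 CPM in plko and 17.6 to 35.8 in the knockdown libraries (1.68 ± 0.18, adjusted p = 1.12e-06), and the aggrecan-cutting Adamts5 rose by 1.69 ± 0.30 (adjusted p = 0.00024).

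Genes of contractile and mesenchymal cells were separated in smaller numbers. Of 20 contractile genes 12 were called higher (60%) and none lower, beside 16.1% and 16.8% of all tested genes. Without batches 1 and 2 in turn, 5 and 8 were called higher. Above every control lay 3 (15%), beside 3.95% of the table. Cnn1, smooth muscle calponin, lay at 0.467, 0.786 and 1.82 CPM in plko, 2.47, 3.36 and 6.75 under shRNF185.1 and 3.32, 6.31 and 10.1 under shRNF185.3. These levels are low, and the rule itself requires that knockdown and control do not overlap. Cnn1 rose by 2.42 ± 0.32 on the log2 scale (adjusted p = 1.23e-05) and the myosin light chain Myl9 by 1.90 ± 0.22 (adjusted p = 3.18e-06). Of 20 mesenchymal transition genes 9 were called higher (45%) and 1 lower (5%), with 5 and 2 without batch 3. Of this list 20% lay above every control. Snai2, a repressor of E-cadherin, lay at 7.66, 9.43 and 9.80 CPM in plko, 14.98, 16.4 and 18.4 under shRNF185.1 and 15.7, 21.98 and 23.7 under shRNF185.3 (1.06 ± 0.08, adjusted p = 2.18e-08). The gap between control and knockdown was 0.61 on the log2 scale, and shRNF185.3 was the higher hairpin (adjusted p = 0.0102). The homeobox genes Prrx1 and Prrx2 rose by 0.54 ± 0.07 and 0.62 ± 0.09 (adjusted p = 5.52e-06 and 3.11e-05). Fibroblast markers moved in both directions: of 8 tested 5 were called higher (62.5%) and 2 lower (25%), beside 16.1% and 16.8% of all tested genes. Their summed level was 1102 to 1476 CPM in plko and 1553 to 2575 in the knockdown libraries, and their part in these results was not tested. The hairpins differed in 7 of these 8 genes, with list medians of 0.08 for shRNF185.1 and 0.56 for shRNF185.3, and both separated ones (Col1a1 and Pdgfrb) are also collagen or receptor genes named in other groups. Of the defining markers Lum had at most 16 counts in any library, while Dcn reached 1165, at 11.13 to 31.96 CPM in plko and 3.709 to 25.17 in the knockdown libraries. Fewer cells of a type and less RNA per cell cannot be told apart in such bulk libraries.

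Adhesion and guidance molecules were split. Of 45 tested cadherins and protocadherins 22 were called higher (48.9%) and 6 lower (13.3%), beside 16.1% and 16.8% of all tested genes. Above every control lay 10 (20%) and below it 2 (4%), beside 3.95% and 2.22% of the table. The 10 were clustered protocadherins, which neurons use to tell cells apart, except for Pcdh9. Pcdhb16 and Pcdhb17, neighbours in the cluster, rose by 1.07 ± 0.12 and 0.95 ± 0.09 (adjusted p = 2.8e-06 and 2.98e-07), both more with shRNF185.1. The genes of the Pcdhg cluster share their last exons, and 39.8% of the windows of Pcdhga7 occur in other genes, so its change of 1.10 ± 0.17 (adjusted p = 7.28e-05) cannot be assigned to it alone. Sema3c, a secreted semaphorin that guides axons and vessels, lay at 114.0, 173.7 and 226.2 CPM in plko, 451.9, 530.7 and 586.3 under shRNF185.1 and 401.8, 464.9 and 606.0 under shRNF185.3. The change was 1.57 ± 0.12 (adjusted p = 2.24e-08), and Plxnd1, a plexin receptor for semaphorins, rose by 0.99 ± 0.05 (adjusted p = 3.49e-10), more with shRNF185.3. Across 47 tested guidance genes, however, 9 were called higher and 13 lower (8 lower without batch 1), and 2 of the lower ones were separated. The called shares were 19.1% and 27.7%, beside 16.1% and 16.8% of all tested genes. Above and below every control lay 8% and 4% of the list, beside 3.95% and 2.22% of the table. The ephrin receptor Epha4 fell by 1.11 (SE 0.13, adjusted p = 3.19e-06) and the ephrin ligand Efnb2 fell by 0.59 (SE 0.08, adjusted p = 1.72e-05).

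Other separated genes had mixed functions. Enpep, an aminopeptidase that converts angiotensin II, and Agt, the angiotensin precursor, rose by 2.92 ± 0.28 and 2.78 ± 0.42 (adjusted p = 2.82e-07 and 5.39e-05). Gstt1, a glutathione transferase, lay at 3.34, 4.48 and 5.79 CPM in plko, 18.02, 29.6 and 35.6 under shRNF185.1 and 19.1, 23.1 and 29.2 under shRNF185.3. Between the highest control and the lowest knockdown library lay a gap of 1.64 on the log2 scale (2.49 ± 0.17, adjusted p = 4.12e-09). The related Gsta4 and Gstm2 rose by 1.05 ± 0.15 and 0.78 ± 0.09 (adjusted p = 2.23e-05 and 2.9e-06), while Gsr, glutathione reductase, fell by 0.26 (SE 0.04, adjusted p = 2.18e-05). Over a list of glutathione and antioxidant genes 9 of 34 were called higher (26.5%) and 3 lower (8.82%), beside 16.1% and 16.8% of all tested genes. Alpl, the tissue-nonspecific alkaline phosphatase, differed most between the hairpins of the genes in this paragraph: 1.60, 2.15 and 2.86 CPM in plko, 7.38, 7.55 and 8.55 under shRNF185.1 and 18.6, 21.9 and 26.4 under shRNF185.3. All 3 groups were apart from each other (2.58 ± 0.13, adjusted p = 1.58e-10, and adjusted p = 2.19e-07 between hairpins). The membrane protein Tmem119, a marker of microglia that osteoblasts also express, rose by 2.94 ± 0.21 (adjusted p = 9.39e-09). Cathepsin B, Ctsb, lay at 278.5 to 361.6 CPM in plko and 435.9 to 594.0 in the knockdown libraries (0.69 ± 0.07, adjusted p = 6.08e-07), while the lysosomal protease gene Ctsh fell by 1.2 (SE 0.15, adjusted p = 5.98e-06).

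Several epithelial genes lay below every control. Epithelial cells are held together by adherens junctions, desmosomes and tight junctions and braced by the keratin pair Krt8 and Krt18. Of 33 tested junction genes 2 were called higher (6.06%) and 14 lower (42.4%), beside 16.1% and 16.8% of all tested genes. The list median was -0.36, and 4 of 34 (11.8%) lay below every control (beside 2.22% of the table) and 1 above. Cdh1, E-cadherin, lay at 24.2, 31.2 and 57.7 CPM in plko, 5.83, 8.85 and 13.9 under shRNF185.1 and 5.63, 7.69 and 10.5 under shRNF185.3. The highest knockdown library was apart from the lowest control by 0.80 on the log2 scale, and the log2 change was -2.02 ± 0.20 (adjusted p = 5.56e-07). Perp, a desmosomal protein and p53 target, lay at 17.2, 21.2 and 33.4 CPM in plko, 2.78, 3.65 and 6.39 under shRNF185.1 and 3.24, 4.35 and 5.38 under shRNF185.3 (-2.46 ± 0.15, adjusted p = 1.52e-09). Jup, plakoglobin of desmosomes and adherens junctions, lay at 59.1, 75.1 and 101.5 CPM in plko, 28.7, 37.8 and 49.0 under shRNF185.1 and 28.8, 31.1 and 41.8 under shRNF185.3 (-1.12 ± 0.13, adjusted p = 3.65e-06). Spint2, an inhibitor of epithelial serine proteases, fell by 1.37 (SE 0.14, adjusted p = 9.69e-07). The exception was Elf3, an epithelial transcription factor, at 10.7 to 13.0 CPM in plko and 20.5 to 25.7 in the knockdown libraries (0.90 ± 0.05, adjusted p = 3.84e-10).

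Krt18 lay at 324.7, 354.1 and 396.3 CPM in plko, 160.9, 179.7 and 190.1 under shRNF185.1 and 143.7, 149.9 and 151.7 under shRNF185.3. The libraries of each group lay close together, and the change was -1.12 ± 0.04 (adjusted p = 4.12e-12), slightly larger with shRNF185.3 (adjusted p = 0.00331). Its partner and neighbour on chromosome 15, Krt8, fell by 0.52 (SE 0.06, adjusted p = 2.11e-06), from 1068 to 1338 CPM in plko to 698.7 to 952.5 in the knockdown libraries, with 22% of its windows found in other genes. Across 14 tested keratins and other intermediate filament genes 1 was called higher (7.14%) and 4 lower (28.6%), beside 16.1% and 16.8% of all tested genes. The list median was 0.07. Of 8 tested epithelial identity markers 1 was called higher (12.5%) and 5 lower (62.5%), with list medians of -0.12 for shRNF185.1 and -1.01 for shRNF185.3. The mean log2 level of these markers overlapped, at -0.35 to 0.54 in plko and -0.98 to 0.09 in the knockdown libraries. Lad1, an anchoring filament protein of basement membranes, lay at 81.9, 94.0 and 107.8 CPM in plko, 35.1, 39.4 and 43.6 under shRNF185.1 and 35.9, 40.2 and 46.2 under shRNF185.3 (-1.24 ± 0.06, adjusted p = 1.58e-10). Ripk4, a kinase needed for epidermal differentiation, lay at 7.37, 9.43 and 12.3 CPM in plko, 1.92, 2.46 and 3.21 under shRNF185.1 and 0.894, 1.06 and 1.54 under shRNF185.3. All 3 groups were again apart (-2.52 ± 0.12, adjusted p = 8.05e-11, and adjusted p = 0.000184 between hairpins).

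**Figure D3:**
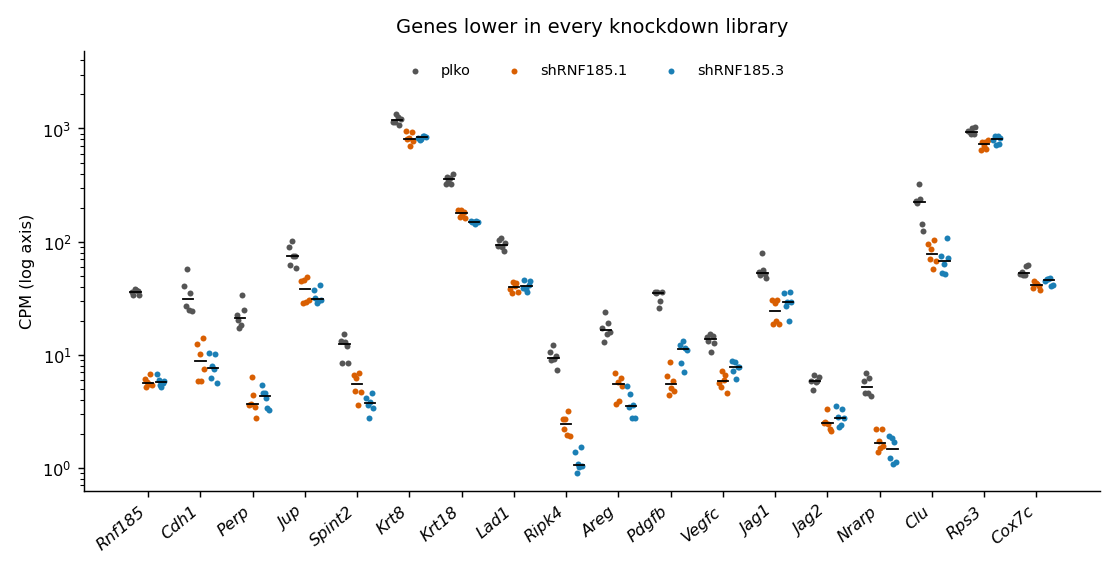
CPM on a log axis in each of 18 libraries for 18 genes below every control, 6 points per group in the order of replicate number, with a bar at the group median. Cdh1 and Perp lie under 14 CPM in all 12 knockdown libraries and above 17 CPM in all 6 plko libraries, whereas the ribosomal gene Rps3 separates by a narrow margin.

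Growth factors were separated on both sides. Areg, a ligand of the EGF receptor, lay at 12.8, 16.4 and 23.7 CPM in plko, 3.65, 5.51 and 6.85 under shRNF185.1 and 2.77, 3.52 and 5.29 under shRNF185.3 (-1.96 ± 0.15, adjusted p = 2.18e-08). Pdgfb, a ligand of Pdgfrb, lay at 25.8, 35.2 and 36.2 CPM in plko, 4.37, 5.51 and 8.55 under shRNF185.1 and 6.997, 11.3 and 13.3 under shRNF185.3 (-2.07 ± 0.13, adjusted p = 2.01e-09). It fell further with shRNF185.1 (adjusted p = 0.00162), and its receptor Pdgfrb rose by 0.47 ± 0.07 (adjusted p = 2e-05). Vegfc, a lymphatic growth factor, fell by 1.00 (SE 0.10, adjusted p = 3.6e-07). Against these, Igf1 lay at 6.21 to 7.81 CPM in plko and 13.2 to 26.1 in the knockdown libraries (1.41 ± 0.15, adjusted p = 9.28e-07), and Fgf7, a growth factor that stroma supplies to epithelium, rose by 0.57 ± 0.07 (adjusted p = 4.8e-06). Pdgfd, of the same ligand family as Pdgfb, also lay above every control. Over 43 receptor tyrosine kinases and ligands 10 were called higher and 14 lower, with 3 above and 3 below every control. The called shares were 23.3% and 32.6%, beside 16.1% and 16.8% of all tested genes. On either side 6.67% of the list was separated, beside 3.95% above and 2.22% below over the table.

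In Notch signalling, ligands on one cell activate receptors on the next. Jag1 lay at 47.6, 53.1 and 79.8 CPM in plko, 18.8, 24.3 and 30.4 under shRNF185.1 and 19.7, 29.4 and 35.9 under shRNF185.3 (-1.08 ± 0.14, adjusted p = 7.95e-06). The ligand Jag2 fell by 1.13 (SE 0.10, adjusted p = 1.74e-07), the receptor Notch1 fell by 0.39 (SE 0.09, adjusted p = 0.00234), and the target and feedback inhibitor Nrarp fell by 1.74 (SE 0.14, adjusted p = 4.54e-08), from a control median of 5.22 CPM to 1.65 and 1.46. These 4 were the genes below every control in a list of 19 tested Notch and Hedgehog genes, of which 5 were called higher and 6 lower. Gas1, a Hedgehog co-receptor, was above every control (0.84 ± 0.09, adjusted p = 7.81e-07). The called shares were 26.3% and 31.6%, beside 16.1% and 16.8% of all tested genes. Above and below every control lay 5% and 20% of the list, beside 3.95% and 2.22% of the table.

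Of the abundant lower genes, Clu, the secreted chaperone clusterin, lay at 123.8, 225.4 and 322.0 CPM in plko, 57.9, 78.2 and 103.8 under shRNF185.1 and 52.3, 67.4 and 108.1 under shRNF185.3. Its spread was wide and its within-batch log2 differences were -1.65, -2.12 and -0.63 (overall -1.5 ± 0.18, adjusted p = 4.41e-06). Wfdc2, a secreted protease inhibitor of glandular epithelium, fell by 1.38 (SE 0.12, adjusted p = 8.58e-08), and the tetraspanin Tspan8 fell by 1.59 (SE 0.16, adjusted p = 5.54e-07), both further with shRNF185.3 (adjusted p = 0.014 and 0.0155). Padi2, which converts arginine to citrulline in proteins, fell by 1.02 (SE 0.13, adjusted p = 5.52e-06) and further with shRNF185.1 (adjusted p = 0.00313). The sodium, potassium and chloride cotransporter Slc12a2 fell by 0.78 (SE 0.09, adjusted p = 1.7e-06).

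Ribosomal and respiratory chain genes moved by small amounts, and those called were all lower. Of 79 cytosolic ribosomal protein genes 64 were called lower (81%, beside 16.8% of all tested genes) and none higher, with a median of -0.24. Below every control lay 10 (12.7%), beside 2.22% of the table. Without batches 1 and 3 in turn, 37 and 38 were called lower. Rps3, a small-subunit protein, lay at 888.3, 934.6 and 1038 CPM in plko, 651.1, 731.7 and 795.3 under shRNF185.1 and 710.2, 804.2 and 866.7 under shRNF185.3. The margin between the groups was narrow (-0.33 ± 0.05, adjusted p = 0.000136), and for Rpl7 the change was -0.34 ± 0.05 (adjusted p = 8.56e-05) with 15.5% of its windows in other genes. Of 74 oxidative phosphorylation genes 30 were called lower (40.5%) and none higher, with a median of -0.12, and 9 had a positive fold change. Below every control lay 4 (5.41%), beside 2.22% of the table, and 13 were called lower without batch 1 and 17 without batch 3. The mean log2 level of this list overlapped, at -0.08 to 0.08 in plko and -0.23 to 0.01 in the knockdown libraries. Cox7c, a subunit of cytochrome c oxidase, lay at 50.3 to 61.8 CPM in plko and 37.3 to 47.9 in the knockdown libraries (-0.35 ± 0.05, adjusted p = 5.8e-05), and Ndufs1, a core subunit of complex I, fell by 0.26 (SE 0.04, adjusted p = 0.00022). These medians kept their sign under every alternative computed. For mitosis genes they did not: 15 of 60 were called lower (25%) and 2 higher (3.33%), with a median of -0.08 that became 0.02 without batch 3 (4 lower and 3 higher). Over all tested genes 16.8% were called lower and 16.1% higher. No mitosis or DNA replication gene was separated from all controls.

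Genes of the pathway in which Rnf185 itself acts were separated in shares near those of the table, 2.86% on either side beside 3.95% and 2.22%. Of 35 genes of degradation at the endoplasmic reticulum 2 were called higher and 5 lower (4 and 5 without batch 2, 5 and 4 without plko replicate 3), with Rnf185 the one below every control and Herpud1, an adaptor of the retrotranslocation complex, the one above, at 44.0 to 59.8 CPM in plko and 63.2 to 89.8 in the knockdown libraries (0.61 ± 0.07, adjusted p = 1.37e-06). Of 26 genes of the unfolded protein response 3 were called higher and none lower, with a median of 0.00 and none separated, and 0, 6 and 0 were called higher without batches 1, 2 and 3. In the degradation list 5.71% were called higher and 14.3% lower, and in the unfolded protein response list 11.5% and 0%. All of these were below the shares over all tested genes, 16.1% and 16.8%.

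**Figure D4:**
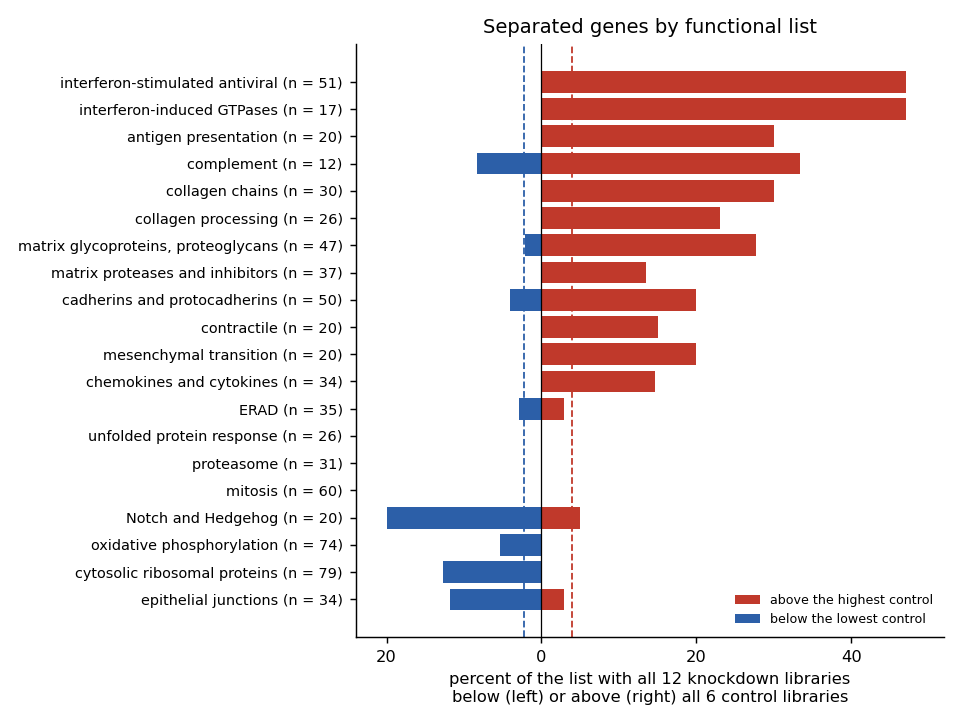
Share of the genes of 20 lists, in percent of those in the CPM table, with all 12 knockdown libraries above (right) or below (left) all 6 control libraries; dashed lines mark the shares over the table, 3.95% and 2.22%. The 2 interferon lists reach 47.1%, and the proteasome, unfolded protein response and mitosis lists have none on either side.

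The rule does not ask whether the hairpins match each other, so their difference was tested separately. They differed in 92 of the 604 higher genes (15.2%) and in 78 of the 337 lower genes (23.1%), beside 14.7% of all tested genes. The members with such a difference, 170 in all, were 82 without batch 1 and 106 without batch 2. Among the former shRNF185.3 was the higher hairpin in 62 and the lower in 30, and among the latter in 46 and 32. The median absolute log2 difference between the hairpins was 0.10 over the higher members and 0.11 over the lower ones. A p that misses the threshold does not show that the hairpins act alike.

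Some separated genes lay next to each other, but the share that members placed at random would give was not computed. The counts that follow therefore do not show that separated genes cluster. Among genes of the CPM table ordered along the chromosomes, 114 of the 608 higher genes (18.8%) stood in 51 runs of adjacent higher genes, and 28 of the 341 lower ones (8.21%) in 13 runs. The longest was Apol7a, Apol9a, Apol10b and Apol9b on chromosome 15 (77388219 to 77736382, GRCm38), apolipoprotein L genes of which relatives share sequence. Other runs of 3 were Oas3, Oas1c and Oas1b on chromosome 5, C1rl, C1ra and C1s1 on chromosome 6, and Casp4, Casp12 and Pdgfd on chromosome 9, and on the lower side Krt8, Krt18 and Eif4b on chromosome 15 and Tspan8, Ptprb and Kcnmb4 on chromosome 10.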

How the data were processed

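Poly(A) libraries of MPC3 cells were sequenced as single 75-base reads, per the labels' protocols, and the reads were processed with cutadapt 2.3, STAR 2.7.0d and RSEM 1.3.1 on mm10, per the submitters' processing notes. The authors deposited expected counts (0.466% not whole, rounded here) and a signal table of CPM, whose values here match counts scaled by TMM library sizes and whose genes each reach 90 counts over all libraries. Both are named in the labels as adjusted with ComBat-Seq for 3 labelled batches; the adjustment's model is not given in the sources used here, and the p-values may not count its degrees of freedom. Fold changes are from edgeR 4.0.16 (R 4.3.3; TMM, filterByExpr at a minimum count of 10, quasi-likelihood test over 3 groups, Benjamini-Hochberg over 14309 genes), tested on simulated data. Positions are GENCODE M21 (GRCm38). Members and the 64 gene lists were chosen with earlier results of these data known. Named genes are, per direction, the 10 with the largest smaller-of-both-hairpins change, the 6 with the widest gap, the 6 with the highest CPM among those changed at least 2-fold, and up to 4 per list, all at a mean count of at least 50, with the nearest genes inside and outside the rule, Rnf185 and Col3a1. Other names, and those in plain lists, were chosen after their values were seen. Some items are not reported here. Alternatives were other scalings, filters, DESeq2 1.42.0, limma 3.58.1, batch terms and left-out libraries. Precision rests on 6 libraries per group of 22027395 to 43379662 counts.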

Additional observations from a re-analysis of the deposited data

Results flagged for a closer look

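For each of 97 genes with values in the text, the extreme library of each group was compared with its neighbour (Dixon's ratio of that gap to the group's range, at its 95% critical value for 6 libraries). This marked 21 of 291 groups, and chance marks about 1 in 20. Values here are log2 CPM with a prior count of 2. Of the control libraries, plko replicate 6 was lowest for Ifit3 (-0.17, the next 1.43), Mmp19 (2.55, next 2.97) and Elf3 (3.43, next 3.61). Replicate 3 of plko was highest for Jag1 (6.32), replicate 5 for Ndufs1 (7.31) and replicate 4 for Pax6 (2.76). With shRNF185.3, replicate 5 stood high for 3 interferon-related genes, Oas1a (3.47, next 2.43), Gbp2 (5.65, next 4.86) and H2-T10 (1.31, next 0.96). With shRNF185.1, the low libraries were replicate 5 for Oas1a (2.44), replicate 6 for Gbp2 (5.32) and replicate 4 for Igtp (2.39). Matrix genes marked were Col11a1 (shRNF185.3 replicate 6, high, 2.74), Col12a1 (shRNF185.1 replicate 2, high, 7.98), Adamts2 (shRNF185.3 replicate 1, low, 6.07) and P4ha3 (shRNF185.1 replicate 5, high, 5.54, and shRNF185.3 replicate 6, low, 5.27). The rest were Tmem119 (shRNF185.1 replicate 6, high, 4.67), Snai2 (shRNF185.3 replicate 1, low, 3.98), Igf1 (shRNF185.3 replicate 3, high, 4.71) and Plxnd1 (shRNF185.1 replicate 5, high, 6.68).

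Among the same genes, 26 differed between the hairpins by the test of the difference itself (edgeR, adjusted p under 0.05). Higher with shRNF185.3, as log2 differences from shRNF185.1, were Alpl (1.51), Fmod (1.06), Col1a1 (0.90), Pdgfb (0.85), Padi2 (0.71), Traf1 (0.58), Npnt (0.57), Adamts14 (0.53), Plxnd1 (0.53), Vegfc (0.39), Snai2 (0.35), Irf1 (0.32), Pdgfrb (0.23) and P4ha3 (0.22). Lower with shRNF185.3 were H2-T10 (-1.13), Fbln5 (-1.11), Ripk4 (-1.08), Oas1a (-0.92), Loxl1 (-0.89), Tspan8 (-0.74), Pcdhb17 (-0.69), Gbp2 (-0.66), Spint2 (-0.56), Wfdc2 (-0.55), Pcdhb16 (-0.51) and Krt18 (-0.25). For Pdgfb, Padi2, Traf1, Npnt and Vegfc, which were below every control, a positive value means a smaller fall with shRNF185.3.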

How the results depend on the processing

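Without batch 1, 2672 genes were called (1414 higher, 1258 lower), and without batch 3, 3106 (1558 lower), beside 4701 with all libraries. Genes above and below every control numbered 1289 and 1128 without batch 2, and 1710 and 1605 with libraries summed per group and batch, where fewer libraries must be separated; without batch 3, 684 lay below. The called genes with at least a 2-fold change, 503 in all, were 293 at a minimum count of 50 and 197 with limma on log2(CPM + 1), whose pseudocount shrinks low genes. Hairpin differences among the members were 82 without batch 1 and 106 without batch 2, beside 170 (an alternative chosen after the data were seen). Leaving out 1 plko library gave 4120 to 4764 called genes, 640 to 711 genes above and 363 to 423 below, while a rule within each batch gave 670 and 419. No member changed direction under any fit, and 932 to 949 of those fitted were called in the same direction except with a minimum count of 50, where all 876 fitted were. The rule chose the members from these same libraries and nearly ensures this, so these counts support nothing. Of 2134 values for 97 named genes, 2131 kept their direction and side of the threshold, which the rule likewise nearly ensures for members. The exceptions were the non-members Cabin1 with the GC and length offset and Pax6 without batch 2. The replicate numbers did not pair the samples (4 of 18 same-numbered pairs correlated above 0.1 in their deviations, mean -0.0144), and with the replicate number as a block 4304 genes were called, 2115 higher and 2189 lower, and 4961 with the block and the GC and length offset.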

Other observations

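Further separated genes fall outside the lists and were picked after their values were seen, so the following is description only. Several genes of the circadian clock and its output lay above every control: the factors Dbp (log2 fold change 1.32) and Tef (0.36) and the repressors Per2 (0.69), Per3 (0.44) and Cry2 (0.62). So did the receptors of sphingosine 1-phosphate S1pr1 (1.48) and S1pr3 (1.41), while the sphingosine 1-phosphate exporter Spns2 lay below every control (-1.09). Inflammasome and inflammatory caspase genes above every control were Naip2 (1.55), Nlrp2 (1.42), Casp12 (1.24) and Casp4 (0.75). Hpgd (-2.63), which inactivates prostaglandins, F2rl1 (-2.11), a receptor cut by serine proteases, and Myb (-1.61), a transcription factor, lay below every control.

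Among the lists not described above, serpins had 3 genes above and 1 below every control of 21 (14.3% and 4.76%). Tetraspanins had 1 and 3 of 22 (4.55% and 13.6%), and solute carriers 4 and 6 of 222 (1.8% and 2.7%). Zinc finger genes of the Zfp series had 5 and 8 of 346 (1.45% and 2.31%). The shares over the table were 3.95% and 2.22%, and those of the solute carriers and Zfp genes were lower than or near them. Imprinted genes, aldehyde and alcohol dehydrogenases, S100 genes and tRNA synthetases had none on either side.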
